A study of Polypedilum vanderplanki with 72 samples.

Results

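The results below describe Pv11 cells whose HSF1 gene was knocked out (KO), after 6 h of heat shock (3 libraries) against 48 h in trehalose (3 libraries), that is, the response that these cells show without HSF1. These 6 libraries were taken by their labels from 72 in the series. Pv11 is a cultured cell line of the sleeping chironomid Polypedilum vanderplanki, and the study measured its polyadenylated RNA. The groups set beside KO, each with 3 libraries, are wild-type Pv11 cells (WT) and 7 lines that carry the same HSF1 knockout and overexpress a single HSF1 form. Of these lines, 5 express an isoform of the midge's own HSF1 (V1, V2, V3, V4 and V5-6) and 2 express a Drosophila form, HSF1a (Dma) or HSF1b (Dmb). All 9 genotypes were sampled after heat shock and in trehalose, and WT also 24 h after rehydration, which followed 11 days of drying. The trehalose mixture held 600 mM trehalose with some culture medium, at 25 °C. The modified lines are clonal per the labels' protocol, and 1 KO line is named, so a property of that clone and the loss of HSF1 cannot be told apart.

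The labels give neither the temperature of the heat shock nor the medium the heated cells were in, and untreated cells were not analysed here. What heat raised and what trehalose had lowered therefore cannot be told apart, and "heat response" below means heat shock over trehalose. The labels do not say whether libraries of a group came from separate cultures, so the p-values rest on a spread between libraries that could be technical only.

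HSF1, heat shock factor 1, is a transcription factor that is held inactive in unstressed cells, assembles into trimers when proteins unfold, and binds heat shock elements in front of its target genes. Its best known targets encode chaperones such as HSP70, HSP90 and the small heat shock proteins, and the factor is widely conserved between insects and mammals. In the sleeping chironomid, larvae survive almost complete drying with the help of trehalose, and HSF1 has been linked to genes switched on as they dry. The gene IDs of the deposited table are paired with no gene names, so genes are given by ID and without a role. For the same reason the level of HSF1 itself, which would check the KO label, was not read.

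Gene counts per library ran from 4549035 to 6416186 in heat-shocked KO cells and from 3676764 to 5066013 in KO cells in trehalose. Reads outside annotated features made up 42.8% to 43.3% of the gene counts and outside reads together in heat-shocked KO cells. In KO cells in trehalose they made up 39% to 39.5%. The 10 highest genes took 12.2% to 12.7% of gene counts in heat-shocked KO cells and 17% to 17.6% in KO cells in trehalose. Between libraries of a group, genes at 20 CPM or more differed by a median of 0.121 to 0.123 on the log2 scale in heat-shocked KO cells and by 0.126 to 0.138 in KO cells in trehalose. CPM are counts per 1000000 of a library's total, where the total is first multiplied by a TMM (trimmed mean of M-values) factor that takes most genes as unchanged. The part of library composition in the results was not tested beyond the scaling alternatives.

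Without HSF1, most of the genes tested had a different level after heat shock than in trehalose, in near equal numbers upward and downward. Of 9231 genes, 5403 passed an adjusted p of 0.05 in edgeR's quasi-likelihood test (58.5%), and such genes are called below. Heat-shocked KO cells were higher for 2706 of them (29.3%) and lower for 2697 (29.2%). At least 2-fold higher were 1352 genes (14.6%) and at least 2-fold lower 1441 (15.6%). At least 4-fold changes numbered 447 upward (4.84%) and 468 downward (5.07%), and at least 16-fold changes 116 upward (1.26%) and 92 downward (0.997%). These folds are edgeR's fitted values, which depend on the small count it adds where a group had no count. That was so for 63 upward and 48 downward calls. For g2259 the fitted log2 was 5.95 in KO, but a floor of 3 counts over the group gave at least 6.28-fold. Of the 447, 187 had a mean under 1 CPM in trehalose over the 8 other genotypes, and 5 had 125 CPM or more. Of the 468, those counts were 33 and 76. The even split rests on the TMM scaling. With library totals alone, which moved the median of all genes to -0.27 on the log2 scale, 1909 genes were higher and 3564 lower, so that 34.9% of calls were upward against 50.1% with TMM.

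The largest rise by the rule for named genes was that of g14216. Its libraries held 19.2, 23.6 and 23.9 CPM in heat-shocked KO cells, against no count in all 3 KO libraries in trehalose. All heat-shocked libraries stood above all trehalose libraries. With a floor of 3 counts over the trehalose group, this was at least 99.7-fold higher (edgeR adjusted p = 1.21e-21). The next, g2639, had 9.73, 11.1 and 8.22 CPM in heat-shocked KO cells, against no count in KO cells in trehalose, and was at least 43.4-fold higher (adjusted p = 6.74e-14). Both genes were silent at this depth in KO cells in trehalose and present in every heat-shocked KO library. Floors and intervals here cover counting error only.

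The largest falls ended in silence at this depth. No count of g4171 was found in the 3 heat-shocked KO libraries, against 21.0, 20.7 and 28.1 CPM in KO cells in trehalose. That is at least 106-fold lower (adjusted p = 2.44e-20). Likewise g4832 had no count in heat-shocked KO cells, against 6.99, 7.61 and 10.1 CPM in KO cells in trehalose, at least 37.5-fold lower (adjusted p = 3.61e-10). Neither gene overlapped between treatments, which the rule for named genes required.

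By amount of RNA, other genes led. The largest gains in CPM were those of g11475 and g2519. The first averaged 10760 ± 538 CPM in heat-shocked KO cells and 3459 ± 269 CPM in KO cells in trehalose (SD, n = 3 each), with single libraries at 10885, 10170 and 11225 CPM after heat shock and at 3667, 3554 and 3156 CPM in trehalose. Its log2 change was 1.64 (SE 0.09, adjusted p = 1.87e-29). The second averaged 10737 ± 361 CPM in heat-shocked KO cells and 4515 ± 267 CPM in KO cells in trehalose, a log2 change of 1.25 (SE 0.08, adjusted p = 3.48e-24). Heat-shocked libraries of both genes stood clear above those in trehalose. The largest loss in CPM was that of g10339, at 19393 ± 486 CPM in heat-shocked KO cells and 24576 ± 1183 CPM in KO cells in trehalose (log2 -0.34, SE 0.05, adjusted p = 6.46e-08). WT cells had means of 14933 CPM after heat shock and 15348 CPM in trehalose (log2 -0.04, not called). For this gene V1, V2, V3 and V5-6 were called higher, Dma and Dmb lower, and V4 was not called. In trehalose KO had the highest mean of all genotypes. The next largest loss, g10342, had counts that differed from those of g10339 by under 5% when summed over the 72 libraries, as did those of g10337 and g24743, so the 4 IDs may share reads and are read here as 1 signal. On library totals alone, heat-shocked KO cells had 27% of their transcript total in other genes than KO cells in trehalose. The gain lay to 50% in 53 genes, and the loss to 50% in 77.

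**Figure D1:**
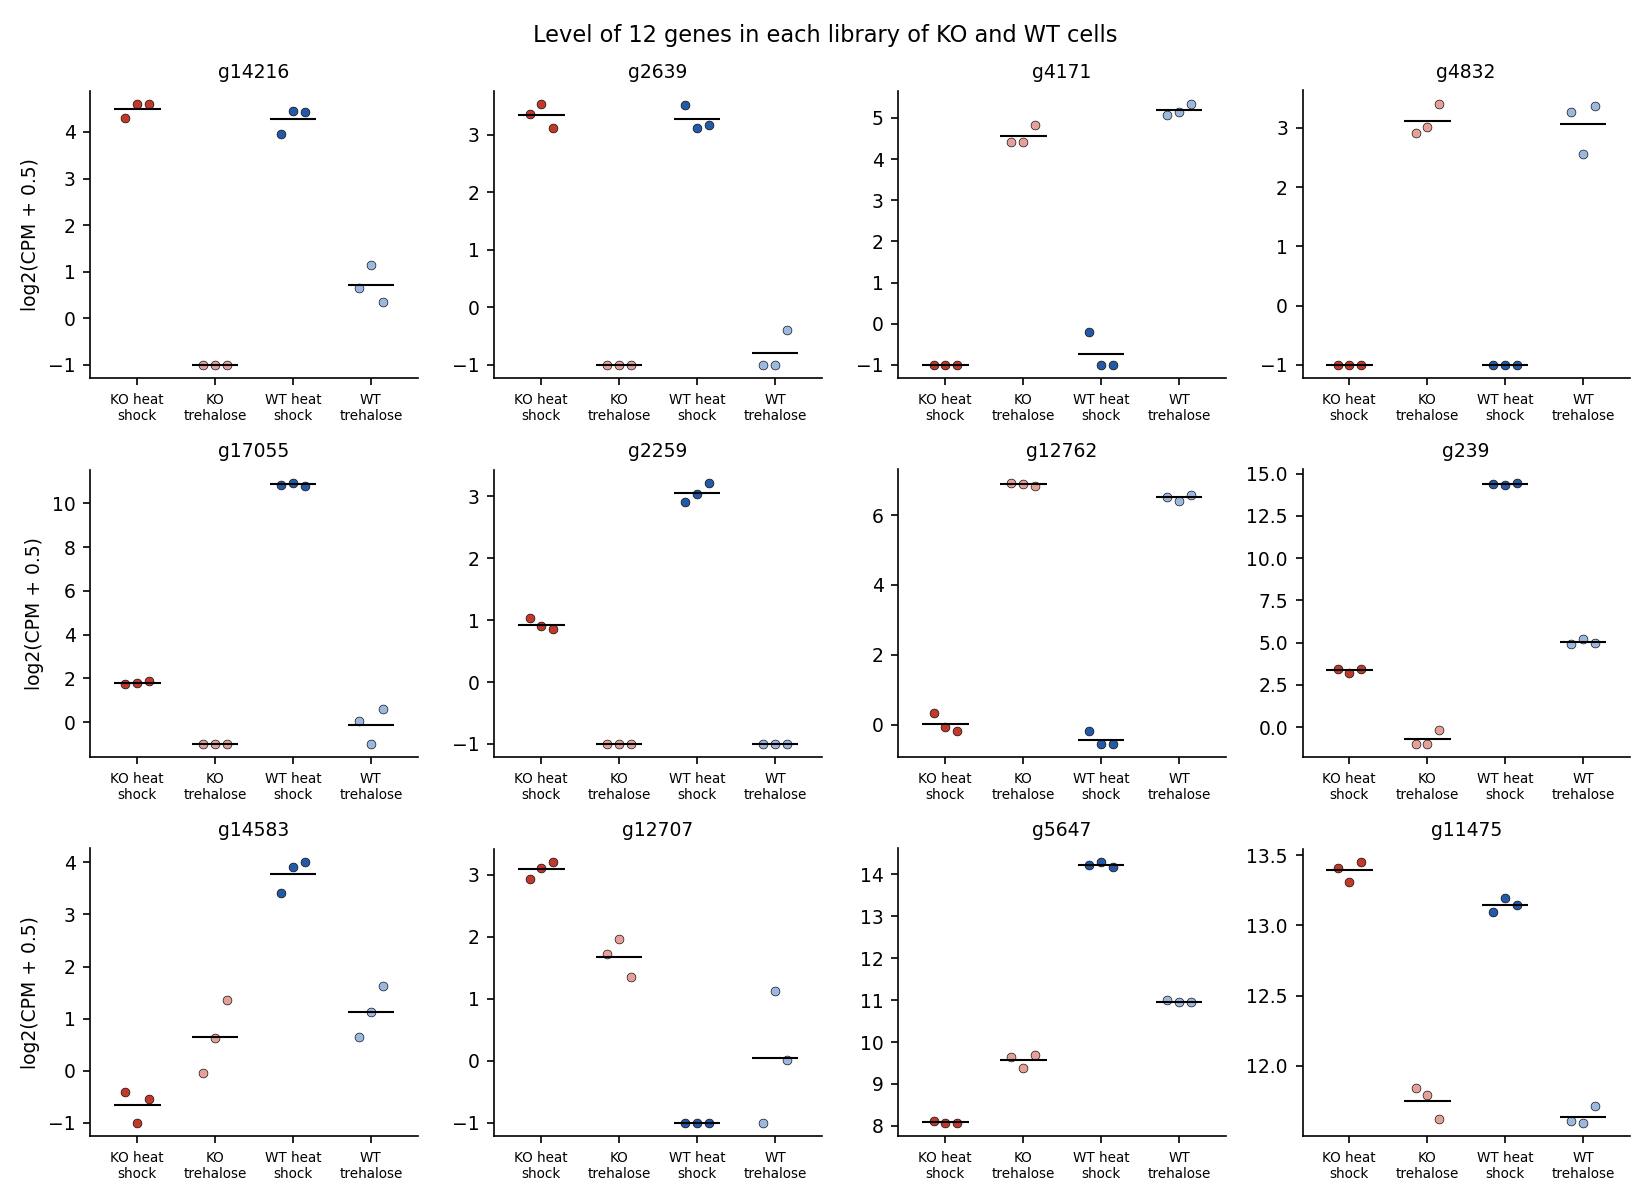
Level of 12 genes in each library (points) of heat-shocked KO, KO trehalose, heat-shocked WT and WT trehalose cells, as log2(CPM + 0.5) on the vertical axis, which starts and ends at a different level in each panel; lines are group means. A value of -1 marks a library with no count: g14216 and g2639 sit there in KO cells in trehalose, g4171 and g4832 in heat-shocked KO cells.

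Some genes crossed the limit of detection. Of the genes tested, 184 had no count in KO cells in trehalose. Of these, 63 were called higher after heat shock, where 29.3% of all genes were. The 63 had means of 0.482 to 22.3 CPM (median 1.02) in heat-shocked KO cells. In the other direction, 143 genes had no count in heat-shocked KO cells. Of these, 48 were called lower, where 29.2% of all genes were, having had means of 0.378 to 23.3 CPM (median 1.15) in trehalose. A gene with no count in a group can be called in 1 direction only. Heat-shocked WT cells were called higher than WT cells in trehalose for 40 of the 63, where 28.6% of all genes were, and lower for 28 of the 48, where 28.7% of all genes were. The shares over all genes cover genes of every level, not only those near zero in a group.

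How far this response was the one seen in cells with HSF1 was asked by setting it beside WT and the 7 lines, whose responses share no library with that of KO. Most genes that changed in KO changed the same way there. Of the 2706 genes higher in heat-shocked KO cells, 74% (2003 genes) were also called higher in WT, where 28.6% of all genes were, and 59 were called lower. Of the 2697 genes lower in heat-shocked KO cells, 74.6% (2012 genes) were also called lower in WT, where 28.7% of all genes were, and 56 were called higher. WT itself changed 5283 of 9231 genes (57.2%), 2636 upward and 2647 downward. Upward calls over all genes made up 29.2% in V1, 30.3% in V2, 31% in V3, 31.3% in V4, 31% in V5-6, 28.5% in Dma and 30.5% in Dmb, and downward calls 29.8% in V1, 31.4% in V2, 31% in V3, 31% in V4, 30.6% in V5-6, 27.5% in Dma and 29.2% in Dmb. Against this, the share of KO's upward genes called upward in a line ran from 67.7% in Dma to 78.4% in V5-6, and the share of KO's downward genes called downward from 67% in Dma to 75.7% in V5-6.

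**Figure D2:**
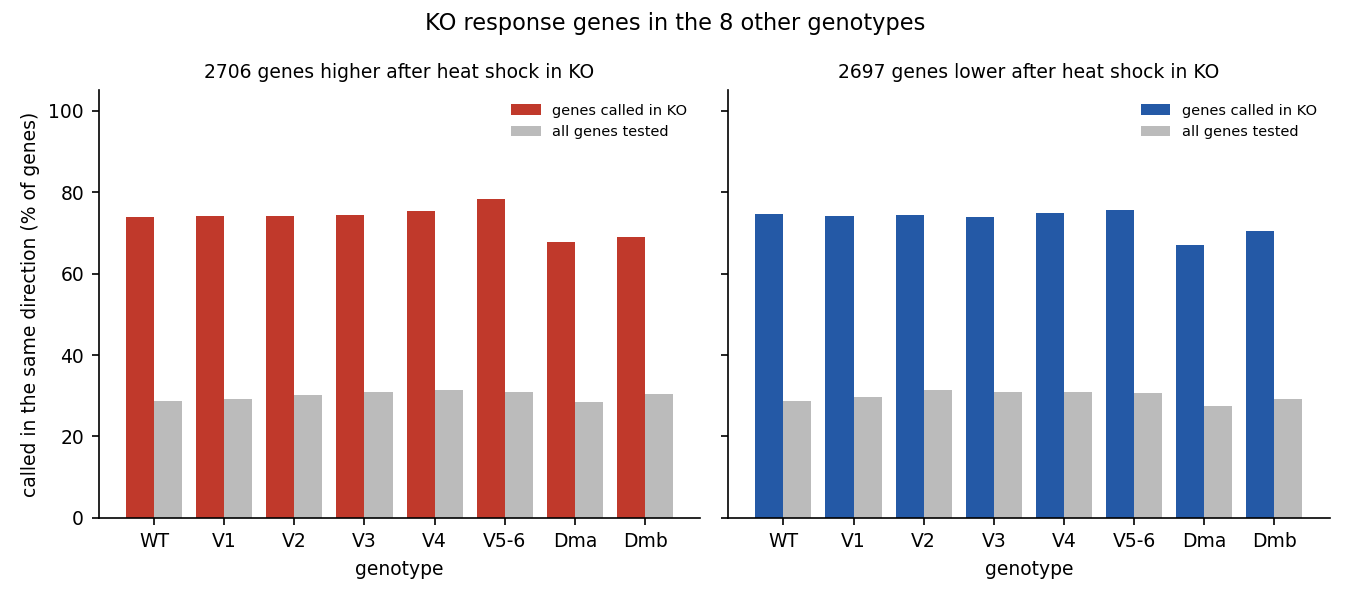
Percent of the genes called in KO (coloured bars; left 2706 higher, right 2697 lower after heat shock) that were called in the same direction in WT and each of the 7 lines, beside the percent of all 9231 genes called in that direction there (grey bars). Coloured bars run from 67% to 78.4%, and in each genotype they stand above the grey bar.

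In all 9 genotypes together 1112 genes were called higher and 1123 lower, which is 41.1% of KO's upward and 41.6% of its downward calls. With library totals alone these counts were 518 higher and 1850 lower. At the other end, 111 upward and 103 downward genes of KO were called that way in none of the 8 other genotypes (4.1% and 3.82% of KO's calls). A missed call does not show that a gene did not change there. Genes that all 8 others called and KO did not numbered 37 higher and 67 lower.

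Among genes with the same direction everywhere, the rule for named genes took those whose smallest change over the genotypes was largest. The 2 taken among shared falls were g4832 and g12762. The second, g12762, stood at 0.768, 0.455 and 0.374 CPM in heat-shocked KO cells, against 122, 119 and 113 CPM in KO cells in trehalose (log2 -7.78, SE 0.22, adjusted p = 7.60e-47). Its log2 change in the other genotypes ran from -8.41 in WT to -4.54 in Dma. The shared rises that the rule took ended at far lower levels in KO than in WT. For g17055, heat-shocked KO cells had 2.82, 2.96 and 3.18 CPM, against no count in KO cells in trehalose, at least 13.4-fold higher. Of the same gene, heat-shocked WT cells had 1851, 1970 and 1750 CPM, against 0.536, 0 and 1.03 CPM in WT cells in trehalose. The V4 and V5-6 lines were near KO after heat shock, with means of 1.06 and 3.46 CPM, while V1, V2, V3, Dma and Dmb had means of 478 to 2629 CPM. For g2259, heat-shocked KO cells had 1.54, 1.36 and 1.31 CPM and heat-shocked WT cells 6.97, 7.65 and 8.81 CPM, against no count in trehalose in either. These are rises of at least 6.28-fold in KO and at least 29.0-fold in WT. Heat-shocked V4 and V5-6 had means of 0.583 and 1.14 CPM of g2259, below the KO mean of 1.40 CPM. Means in heat-shocked V1, V2, V3, Dma and Dmb ran from 5.01 to 28.9 CPM. Neither gene had a count in V4 cells in trehalose. In V4 the rise was at least 4.61-fold for g17055 and at least 2.54-fold for g2259, which had no count in heat-shocked library 56. The fitted values by which these rises were taken depend on the small count that edgeR adds. Whether the rises of g17055 and g2259 differed between KO and WT could not be told. With no count in the KO trehalose libraries, the KO rises are known only as lower bounds, which lay below the WT values. The test of the difference called neither gene, with an SE of 38.1 for g17055 and 5491 for g2259 on the log2 scale.

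The size of the changes was compared next. The 447 genes at least 4-fold higher in KO had a median fitted log2 change of 2.97 there, by which they were chosen. It was 1.91 in WT, 2.54 in V5-6 and 1.78 in Dma. Many of the 447 were low genes, as given above. The 468 genes at least 4-fold lower had a median of -2.64 in KO, -2.21 in WT, -2.62 in V4 and -1.97 in Dma. The median over all 9231 genes was within 0.05 of 0 in each genotype. Lists chosen in the other genotypes can be read in KO without that choice. Of 314 genes at least 4-fold higher in WT (3.4%), 72.9% were called higher in KO, where 29.3% of all genes were, with a median of 2.79 in KO and 3.02 in WT. The remainder were 78 genes not called in KO and 7 called lower. Of 503 genes at least 4-fold lower in WT (5.45%), 72.6% were called lower in KO, where 29.2% of all genes were, with a median of -2.13 in KO and -2.72 in WT. For rises of at least 4-fold in a line, the share called higher in KO was 68.6% for V1 (507 genes, 5.49% of all), 74.6% for V2 (519 genes, 5.62%), 75.6% for V3 (406 genes, 4.4%), 83.5% for V4 (395 genes, 4.28%), 83.7% for V5-6 (448 genes, 4.85%), 67.4% for Dma (301 genes, 3.26%) and 72% for Dmb (371 genes, 4.02%). For falls of at least 4-fold in a line, the share called lower in KO was 72.1% for V1 (444 genes, 4.81%), 69.1% for V2 (602 genes, 6.52%), 63.1% for V3 (626 genes, 6.78%), 73.1% for V4 (747 genes, 8.09%), 74.1% for V5-6 (696 genes, 7.54%), 64.9% for Dma (490 genes, 5.31%) and 72% for Dmb (558 genes, 6.04%). The order of the lines was not tested. Across the 9231 genes, Pearson's r between the KO response and that of another genotype lay between 0.63 for Dma and 0.74 for V5-6, with 0.71 for WT, as a description over genes that are not independent replicates.

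Where the response itself differed without HSF1 was tested directly, as the log2 response of KO minus that of WT. It differed for 1366 of 9231 genes (14.8%), above WT for 676 (7.32%) and below WT for 690 (7.47%). With library totals alone, 1322 genes were above and 331 below, an upward share of 80%, and with counts summed over all transcripts of a gene 507 were above and 829 below, a share of 37.9%, against 49.5% as first given. Which direction prevailed therefore depends on the scaling, and the counts are given relative to the TMM centre. At least 2-fold differences numbered 266 above (2.88%) and 163 below (1.77%).

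Many of these were differences of size, not of sign. Of the 676 genes whose response was higher in KO, 281 pointed up in both genotypes, with a median log2 response of 1.51 in KO and 0.65 in WT. Another 170 pointed down in both, with -0.55 in KO and -1.42 in WT, and 225 pointed up in KO and down in WT. Of the 690 genes whose response was lower in KO, 286 pointed down in both (-1.39 in KO, -0.62 in WT), 164 pointed up in both (0.37 in KO, 1.00 in WT), and 240 pointed down in KO and up in WT. These signs are those of the fitted values, of which not all passed the test in each genotype.

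**Figure D3:**
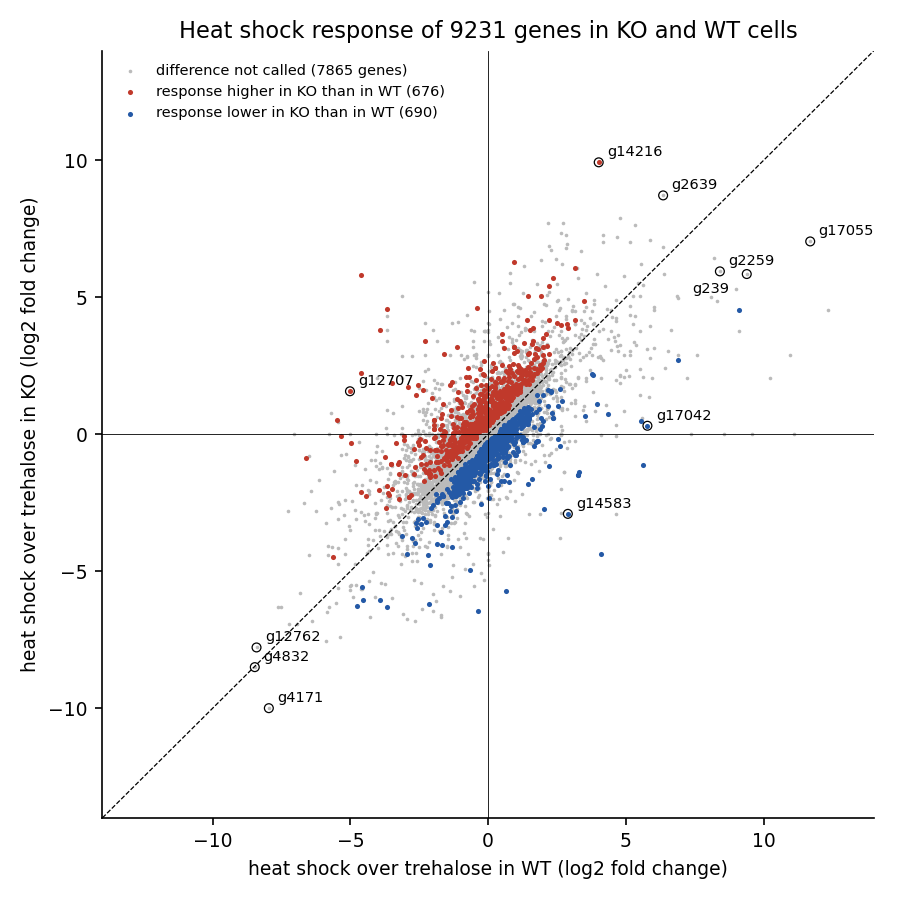
Log2 change after heat shock over trehalose in KO (vertical) against WT (horizontal), 1 point a gene for 9231 genes; the dashed line marks equal responses, and red and blue mark the 676 genes higher and the 690 genes lower in KO by the test of the difference. Most points lie along the dashed line, and points at the upper left and lower right have opposite signs in KO and WT; values of genes with no count in a group, such as g14216 and g4171, depend on the small count that edgeR adds.

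Opposite signs were clear for g10585, chosen by the rule on the difference from all other genotypes. In heat-shocked KO cells its libraries held 2.82, 2.27 and 3.92 CPM, against 24.9, 19.7 and 17.3 CPM in KO cells in trehalose, a log2 change of -2.74 (SE 0.32, adjusted p = 3.28e-12). In heat-shocked WT cells they held 36.9, 31.3 and 39.2 CPM, against 7.77, 8.49 and 9.80 CPM in WT cells in trehalose, a log2 change of 2.04 (SE 0.27). The treatments did not overlap in either genotype, and KO was the lower after heat shock and the higher in trehalose. The response of KO minus that of WT was -4.78 (SE 0.41, adjusted p = 5.27e-16), and it was called below zero against each of the 7 lines too, from -4.85 against V1 to -1.88 against V4. Of the lines, V4 was called lower after heat shock (log2 -0.86, adjusted p = 0.0189), V1 (2.11), V3 (1.04) and Dmb (0.86) were called higher, and V2, V5-6 and Dma were not called.

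Far more abundant were g5647 and g5648, named here after their values were seen. Their counts and those of g5646 differ by under 5% when summed over the 72 libraries, so the 3 IDs may share reads. The values that follow are those of the transcript of g5647 with the highest total. It had 276, 268 and 269 CPM in heat-shocked KO cells and 797, 666 and 826 CPM in KO cells in trehalose (log2 -1.49, SE 0.11, adjusted p = 3.60e-21). Heat-shocked WT cells had 19185, 20274 and 18413 CPM, against 2038, 1979 and 1977 CPM in WT cells in trehalose (log2 3.27, SE 0.11). The mean after heat shock was 71.2-fold lower in KO than in WT. Its response in KO minus that in WT was -4.77 (SE 0.16, adjusted p = 4.03e-42). The transcript also fell in V4, with means of 297 CPM after heat shock and 1361 CPM in trehalose, and in V5-6, with 879 CPM after heat shock and 1264 CPM in trehalose. It rose in the 5 other lines, by 1.13 to 3.00 on the log2 scale. Against V4 alone the response of KO was the higher, by 0.70 (SE 0.15, adjusted p = 0.000248). The opposite signs in KO and WT depend on this choice of transcript for g5647. The counts of all its transcripts were also summed, with CPM taken per library total of all transcripts. Those totals are 18.5 to 26.1 times the gene counts, so these CPM cannot be set beside those above. So taken, g5647 had 55.2, 51.8 and 56.6 CPM in heat-shocked KO cells, against 820, 710 and 896 CPM in KO cells in trehalose. In WT it had 1055, 1080 and 1050 CPM after heat shock, against 2756, 2833 and 2584 CPM in trehalose. So summed, heat-shocked libraries were the lower in both genotypes, with a log2 response of -3.50 in KO and a difference from WT of -2.82 (adjusted p = 4.13e-18). For g5648, summed in the same way, libraries held 53.6, 55.0 and 51.6 CPM in heat-shocked KO cells, against 119, 103 and 133 CPM in KO cells in trehalose, and 2790, 2837 and 2549 CPM in heat-shocked WT cells, against 230, 223 and 219 CPM in WT cells in trehalose. There the treatments stood in opposite order in KO and WT, as in its highest transcript, with a difference of -5.04 (adjusted p = 1.01e-31).

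The gene g239, also named after its values were seen, shows a response that remained in sign but at a far lower level. Heat-shocked KO cells had 10.5, 8.64 and 10.5 CPM, against 0, 0 and 0.375 CPM in KO cells in trehalose, where it had 2 counts in all. That is 66.4-fold higher after heat shock, with an exact Poisson 95% interval of 18.0 to 554. In WT the libraries held 21508, 20785 and 22819 CPM after heat shock, against 29.2, 37.1 and 31.0 CPM in trehalose (log2 9.39, SE 0.19). V4 stood near KO, with a mean of 10.7 CPM after heat shock and 0.298 CPM in trehalose. The difference in log2 response between KO and WT was -3.54 (SE 2.26) and was not called (adjusted p = 0.327, over alternatives 0.0150 to 0.905). DESeq2 gave the lowest of these and called it, at -3.31. Both KO counts in trehalose lay in library 18, and without it the difference was -0.64 (adjusted p = 0.905) and the KO response 8.75.

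By the rule for the difference from WT, the largest values were those of low genes. Heat-shocked KO cells had 7.17, 8.18 and 8.78 CPM of g12707, against 2.80, 3.41 and 2.06 CPM in KO cells in trehalose (log2 1.57, SE 0.37, adjusted p = 0.000195). Heat-shocked WT cells had none, against 0, 1.70 and 0.516 CPM in WT cells in trehalose, at least 4.02-fold lower. The difference was 6.58 (SE 1.44, adjusted p = 0.000379), and without 1 of the WT trehalose libraries (library 20) it was 5.21 with an adjusted p of 0.0625, against 6.56e-05 to 0.0625 over all alternatives. The lines V1, V2, V3, V4, V5-6 and Dmb were also called higher after heat shock, with means there of 6.98 to 9.37 CPM, while Dma was not called (0.331 CPM). Its response in KO minus the mean of the 8 other genotypes was 0.55 (adjusted p = 0.338). For g14216 the difference also counted as above WT, since WT cells in trehalose had 1.07, 1.70 and 0.774 CPM, against none in KO cells in trehalose. After heat shock the libraries of KO (19.2 to 23.9 CPM) and WT (15.1 to 21.5 CPM) overlapped. The groups were apart in trehalose and not after heat shock. The difference in response was called against WT (adjusted p = 0.00407) and against each of the 7 lines.

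Below WT stood g14583 and g17042. Heat-shocked KO cells had 0.256, 0 and 0.187 CPM of g14583 (2 counts), against 0.466, 1.05 and 2.06 CPM in KO cells in trehalose. That is 8.64-fold lower, with an exact Poisson 95% interval of 2.05 to 77.1. Heat-shocked WT cells had 10.2, 14.6 and 15.6 CPM, against 1.07, 1.70 and 2.58 CPM in WT cells in trehalose. Heat-shocked V1, V2 and V3 also had means of 8.86 to 10.6 CPM, against 0.610 and 1.35 CPM in heat-shocked V4 and V5-6. The response of KO minus that of WT was -5.80 (SE 1.16, adjusted p = 9.21e-05). The fall in KO alone (adjusted p = 0.0159, over alternatives 0.00542 to 0.155) was lost without heat-shocked library 68 (log2 -2.41, adjusted p = 0.0660) and without trehalose library 18 (log2 -2.18, adjusted p = 0.155). For g17042, heat-shocked KO cells had 1.28, 0.455 and 0.747 CPM, against 0, 0.262 and 1.50 CPM in KO cells in trehalose, and were not called (adjusted p = 0.738). Heat-shocked WT cells had 6.41, 6.20 and 5.93 CPM, against 0, 0 and 0.258 CPM in WT cells in trehalose. Heat-shocked V4 and V5-6 had means of 0.376 and 0.283 CPM and were not called either (adjusted p = 0.833 and 0.779). The lines V1, V2, V3, Dma and Dmb were called higher after heat shock. The response of KO minus that of WT was -5.47 (SE 1.24, adjusted p = 0.000661, over alternatives 0.000116 to 0.369). It was lost without KO trehalose library 18, which held most of the KO counts in trehalose (-3.28, adjusted p = 0.369), and was -7.77 without WT trehalose library 21 (adjusted p = 0.000623).

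Against the mean response of all 8 genotypes with an HSF1 form, the response of KO differed for 2044 of 9231 genes (22.1%), 995 above (10.8%) and 1049 below (11.4%). With library totals alone, 1523 were above and 644 below, an upward share of 70.3% against 48.7%. The largest value above was again that of g14216 and the next that of g14318, a gene that fell in each of the 8 other genotypes. It had 1.02, 0.909 and 1.49 CPM in heat-shocked KO cells, against 1.86, 2.36 and 2.63 CPM in KO cells in trehalose, a log2 value of -0.97 that was not called (adjusted p = 0.171). Heat-shocked WT cells had 0.565, 0.364 and 0.359 CPM, against 12.6, 12.7 and 12.1 CPM in WT cells in trehalose. KO was below WT in trehalose and above it after heat shock, in all libraries. The response of KO minus the mean of the others was 3.91 (SE 0.78, adjusted p = 5.79e-05). The values furthest below were those of g14583, at -4.16 (SE 1.06, adjusted p = 0.00190), and of g10585, at -3.42 (SE 0.34, adjusted p = 6.36e-14).

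Set against each genotype in turn, all 8 comparisons sharing the KO libraries, the response of KO differed for 1366 genes from WT, 1753 from V1 (19%), 2036 from V2 (22.1%), 2257 from V3 (24.5%), 2154 from V4 (23.3%), 1775 from V5-6 (19.2%), 2188 from Dma (23.7%) and 2390 from Dmb (25.9%). The spread between libraries and the scaling enter each count, so they are not read as a ranking of the genotypes by likeness. The upward share of these calls was 42.7% in the V1 comparison with TMM (82.8% with library totals alone), 42.7% in that with V2 (66.7%), 44.8% with V3 (72.5%), 49.2% with V4 (59.2%), 46% with V5-6 (58.4%) and 55.5% with Dmb (41.8%).

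**Figure D4:**
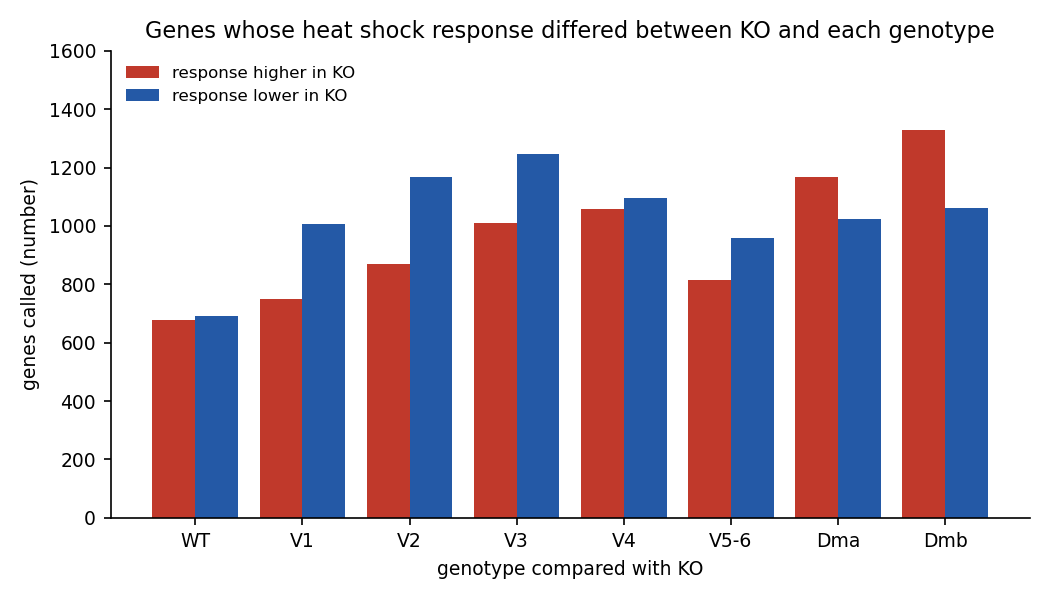
Number of genes (vertical) whose heat shock response was higher (red) or lower (blue) in KO than in each other genotype (horizontal), at an adjusted p of 0.05. Totals run from 1366 for WT to 2390 for Dmb, and every bar rests on the same 6 KO libraries.

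A response opposite to that of all 8 other genotypes was rare, and the 4 genes that had it, named after their values were seen, changed little in KO. KO rose where all others fell for g2609, at 38.4, 27.3 and 34.4 CPM in heat-shocked KO cells and 23.5, 22.0 and 30.6 CPM in KO cells in trehalose (log2 0.38, SE 0.16, adjusted p = 0.0350), so its libraries overlapped. The other was g10390, at 98.6 ± 11.4 CPM in heat-shocked KO cells and 81.6 ± 6.45 CPM in KO cells in trehalose (log2 0.27, SE 0.11, adjusted p = 0.0312). KO fell where all others rose for g6813, at 39.5 ± 2.37 CPM in heat-shocked KO cells and 55.6 ± 8.96 CPM in KO cells in trehalose (log2 -0.49, SE 0.20, adjusted p = 0.0320). The same held for g13214, at 76.4 ± 3.05 CPM in heat-shocked KO cells and 88.7 ± 3.31 CPM in KO cells in trehalose (log2 -0.22, SE 0.10, adjusted p = 0.0427). For g6813, KO had the highest mean of all genotypes in both states. The other genotypes had means of 2.15 to 16.8 CPM in trehalose and 8.67 to 34.8 CPM after heat shock. Each of these 4 calls in KO was lost when 1 or another library was left out, while the difference from WT was called for each, from -1.53 for g6813 to 1.16 for g10390.

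Rehydrated WT cells gave a further state to set against trehalose, with no library in common with KO. This comparison was chosen after the data were seen. Of the 2706 genes higher in heat-shocked KO cells, 52.4% were higher in rehydrated WT cells than in WT cells in trehalose, where 26.6% of all genes were, and 9.87% were lower. Of the 2697 genes lower in heat-shocked KO cells, 55.3% were lower in rehydrated WT cells, where 26.5% of all genes were, and 8.38% were higher. For genes changed at least 4-fold in KO the shares were 49.4% of 447 upward and 57.3% of 468 downward. The gene g14216 had 55.8, 45.1 and 51.1 CPM in rehydrated WT cells, against 1.07, 1.70 and 0.774 CPM in WT cells in trehalose. For g2639 the means were 0.673 CPM in rehydrated WT cells and 0.086 CPM (1 count) in WT cells in trehalose. That rise was called as well (log2 2.64, SE 1.13, edgeR adjusted p = 0.0436), at a low level. How much of the change in KO belongs to leaving trehalose and how much to heat cannot be told apart here.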

How the data were processed

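The authors deposited a table of raw read counts, without normalization, by transcript of an annotation, for 72 libraries in 24 groups. Per the submitters' processing notes, FastQC 0.11.9, Trimmomatic 0.39, HISAT2 2.2.1 and HTSeq 2.0.9 were used. The genome build, annotation and strand setting are not given in the sources used here, so genes that overlap, on either strand, may share reads.

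It holds 17156 genes with 65235 transcripts, and 5 rows that name no gene, which entered neither totals nor tests. Among these, the reads outside features, had 38.3% to 46.5% of a library's gene counts and outside reads. All transcripts summed to 18.5 to 26.1 times the gene counts, so a read was counted in several transcripts. Each gene, the ID without its transcript ending, was therefore represented by the transcript with the highest total. Gene counts ran from 3043634 to 8808470 per library. None of the IDs matched the reference table of gene names (0 of 17863 loci), so the planned lists of chaperones, proteasome, late embryogenesis abundant and other genes are void and no sequences are printed.

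The analysis used R 4.3.3 with edgeR 4.0.16 (and limma 3.58.1, on which it depends): filterByExpr on the groups, which left 9231 genes, TMM scaling and the quasi-likelihood test in a fit of all 72 libraries, with Benjamini-Hochberg adjusted p under 0.05 over all genes tested as the call. SE is the log2 value over the root of its F statistic. No covariate was used, as the labels give no batch. Folds against a group with no count are bounds against 3 counts over the group, and ratios over 1 to 3 counts have exact Poisson 95% intervals. DESeq2 1.42.0, other scalings and filters, summed transcripts, fewer libraries and leaving out each library were alternatives. The scripts were tested on simulated data.

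Members, lists and tests were chosen with earlier results of these data known. Named genes are, for the KO response, its difference from WT and its difference from the mean of the 8 others, the 2 largest and 2 smallest log2 values among called genes with a mean of 5 CPM or more in KO or WT. For the KO response, the KO libraries of the 2 treatments had also to be without overlap. For both differences, the log2 differences between single heat-shocked and trehalose libraries in KO had to be without overlap with those in WT. The 2 largest gains and losses in CPM were added. So were, in each direction, the 2 changes shared by all 9 genotypes whose smallest fitted size was largest.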

Additional observations from a re-analysis of the deposited data

Results flagged for a closer look

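The heat response of KO differed from that of WT, by the test of the difference itself, for 1366 genes. The same test gave 1753 genes against V1, 2036 genes against V2 and 2257 genes against V3. It gave 2154 genes against V4 and 1775 genes against V5-6. With the Drosophila forms it gave 2188 genes (Dma) and 2390 genes (Dmb), each time against the same KO libraries.

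Among the named genes, the log2 response of KO minus that of WT was above zero for g12707 (6.58), g14216 (5.91), g14318 (3.83), g10390 (1.16) and g2609 (0.88). The values of g12707 and g14216 depend on the small count that edgeR adds, since a group of each had no count. It was below zero for g14583 (-5.80), g17042 (-5.47), g10585 (-4.78), g5647 (-4.77), g5648 (-4.76), g6813 (-1.53), g13214 (-0.75), g10339 (-0.30) and g10342 (-0.26). The 3 genes g5646, g5647 and g5648 may share reads, as may the 4 genes g10337, g10339, g10342 and g24743. With all transcripts of g5647 summed, its value was -2.82.

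Reads outside annotated features, which no comparison uses, made up at least 42.8% of gene counts and outside reads together in every heat-shocked KO library. In KO cells in trehalose they made up at most 39.5%. In WT the shares were 41% to 41.8% after heat shock and 39.8% to 40.1% in trehalose. Their part in the results was not tested.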

How the results depend on the processing

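With library totals in place of TMM, the response of KO was higher than that of WT for 1322 genes and lower for 331, than that of V1 for 2140 and 443, than that of V2 for 1487 and 741, than that of V3 for 1720 and 652, and than the mean of all 8 for 1523 and 644. Shared by all 9 genotypes were then 518 higher and 1850 lower genes. The cause was not tested. Leaving out 1 library at a time, the KO response held 2510 to 2602 higher and 2477 to 2534 lower genes, and its difference from WT 579 to 618 higher and 590 to 660 lower. The other counts run stayed within 1.5 times those reported. They are the higher and lower calls of the KO response, of its differences from WT, each line and the mean of all 8, and those shared by all 9 genotypes. DESeq2 was run only for the KO response and its differences from WT and from the mean of all 8. Differences from the lines were rerun with library totals alone. The counts shared by all 9 genotypes were rerun only with library totals and with 1 other scaling (RLE size factors). Counts of at least 4-fold changes, of detection and of overlap were not rerun.

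The 40 single-gene results that were rerun are KO responses and their differences from WT or from the mean of the other genotypes. None of these 40 reversed under any alternative run. Responses of WT alone were not among them. The WT rise of g5647 did turn into a fall with all its transcripts summed and on library totals, as given above. Of the 40, 30 kept their call under all alternatives, and 10 changed it under at least 1. Those for g239, g12707, g17042 and the fall of g14583 are given above. The KO response was lost for g2609 under 5 of 15 alternatives, for g10390 under 5, for g6813 under 4 and for g13214 under 11. The difference from WT was lost with library totals for g10339 (-0.11, adjusted p = 0.209) and g10342 (-0.07, adjusted p = 0.460), where p ran from 6.23e-05 and 0.000481 over the alternatives. No level under the floor of 3 counts over a group can be read, which is 0.220 CPM in heat-shocked KO cells and 0.223 CPM in KO cells in trehalose. No paired analysis was possible because the labels' library numbers are shared by no groups.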

Other observations

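Genes with successive IDs shared a direction in KO more than pairs at large. The IDs are those of the annotation, whose positions were not used here. Among 7008 pairs of tested genes with successive numbers, 2108 began with a gene called higher after heat shock in KO, and the next gene was so too in 856 (40.6%), against 30.2% over all pairs. For genes called lower the count was 820 of 2115 (38.8%), against 29.9%. By the stricter limit, 288 pairs began with a gene at least 4-fold higher after heat shock in KO, and the next gene was so too in 60 (20.8%), against 4.45% over all pairs. For genes at least 4-fold lower the count was 74 of 336 (22%), against 4.85%. Without genes whose counts nearly coincide with those of another, 58 of 283 pairs (20.5%) and 64 of 324 pairs (19.8%) remained. Pairs overlap in their genes, so they are not independent, and no test was made.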
